A study of Homo sapiens with 6 samples.

Results

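Cytochrome P450 genes were examined in the ChIP-seq region lists of HepG2 hepatoma cells, an established human line from a liver tumor. The members were chosen by name: every gene whose assigned symbol is CYP followed by a family number, a letter and a second number, without CYP51A1, the sterol demethylase of cholesterol synthesis. Of 55 such genes in the GENCODE release 44 annotation, 31 were assigned at least 1 region in any of the 4 lists, with 201 of the 271336 listed regions. The other 24 genes had none assigned. The share of all protein-coding genes assigned any region was not computed. The counts of listed genes, here and by role, thus have no background share beside them.

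The study profiled RPB1, the largest subunit of RNA polymerase II, and RPB1 phosphorylated on Ser2 of its C-terminal domain (pSer2) in untreated cells. One line was HepG2 SHP-1-WT, the control. The paper describes control cells given a nontargeting guide and also untransfected cells, and its ChIP-seq methods name the control only as WT. The other line was HepG2 SHP-1-KO, in which PTPN6, the gene of the tyrosine phosphatase SHP-1, was knocked out by CRISPR. The lines were grown as single cell clones, so clone and genotype cannot be told apart. Each antibody was used once per line, with 2 input libraries that were not analysed here, so no difference between SHP-1 WT and SHP-1 KO has a replicate check and no test was made. Read counts were not used, and how deeply the libraries were sequenced is unknown. A gene without a region may still be occupied below the calling threshold, and the smallest −log10 q-value listed was 1.31 in every list. At PTPN6, the strongest promoter RPB1 region had a fold enrichment over input of 24.0 in WT and 17.2 in SHP-1 KO, which does not check the knockout, since a small CRISPR deletion need not stop transcription.

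P450 enzymes are haem proteins that insert oxygen into lipophilic substrates, with electrons passed on from POR in the endoplasmic reticulum or from ferredoxin in mitochondria. In liver they oxidise drugs and foreign chemicals, build bile acids from cholesterol, and turn over fatty acids, vitamin D and retinoic acid. RNA polymerase II gathers at promoters before elongation, and Ser2 phosphorylation of RPB1 is a mark of polymerase that is elongating through gene bodies and past the end of genes. A gene with promoter RPB1 and body pSer2 therefore carries both marks of a transcribed gene. Many liver P450 genes are known to be poorly expressed in HepG2 cells compared with hepatocytes.

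P450 genes carried both marks less often than protein-coding genes at large in these lists. A promoter RPB1 region, within 1 kb of an annotated transcript start, was assigned to 19 of the 55 members in WT, 34.5% against 52.5% of all 20007 protein-coding genes. In SHP-1 KO it was assigned to 18 members, 32.7% against 51.1%. A body pSer2 region, in an exon, intron or UTR, was assigned to 10 members in WT, 18.2% against 40.7% of all genes, and to 9 members in SHP-1 KO, 16.4% against 35.4%. Among members with promoter RPB1 in the same cells, body pSer2 was listed for 7 of 19 in WT, 36.8% against 63.2% of all such genes, and for 7 of 18 in SHP-1 KO, 38.9% against 57.0%. These shares are descriptions of single libraries.

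The promoter RPB1 regions of members were also weaker than those of other genes. The strongest promoter RPB1 region per gene had a median fold enrichment over input, taken at the summit, of 14.6 over the 19 members in WT, against 26.8 over all protein-coding genes with one. In SHP-1 KO the medians were 10.6 and 19.3. For promoter pSer2 the medians were 5.08 over 9 members and 4.85 over all genes in WT, and 3.96 over 8 members and 4.85 in SHP-1 KO. Where any pSer2 lay on the gene beyond the first 1 kb, it covered a median of 3.76% of that length over 12 members in WT and 3.26% over 7 members in SHP-1 KO, against 10.1% and 8.70% over all genes with any. Members' pSer2 regions were more often annotated as distal, 23.9% of their 67 in WT against 9.02% of all regions. In SHP-1 KO it was 25.0% of the 48 against 8.34%. Several of these in both lines were at CYP4F12 and CYP2W1. The label is an annotation, and a WT region that carries it (chr22:42148605-42148873) overlapped its own gene, CYP2D7.

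**Figure D1:**
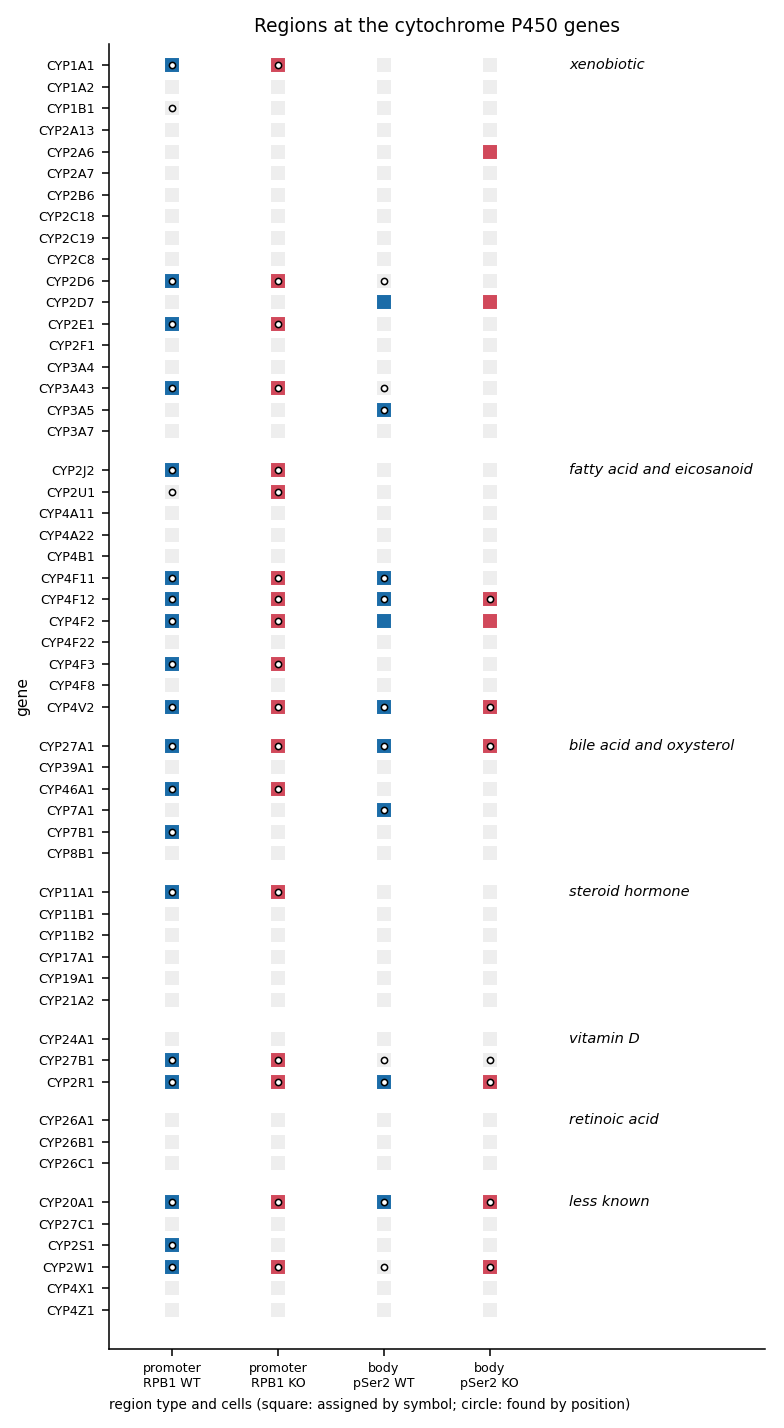
Presence of promoter RPB1 and body pSer2 regions at cytochrome P450 genes, grouped by role, in WT (blue) and SHP-1 KO (red). A filled square is a region assigned to the gene's symbol and a circle a region found by position, and 19 genes in WT and 18 in SHP-1 KO have a filled promoter square.

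Sequences just upstream of the RefSeq starts are given for 6 members as examples. Of the 55 members, 38 had a RefSeq promoter sequence (GRCh38.p14), too few for a count of motifs over the group. The 150 bases that end 1 base before the start are given for 3 of the 4 most enriched members (CYP2W1, CYP27A1 and CYP4V2), for the member with the highest promoter fold enrichment among those not lower in SHP-1 KO (CYP1A1), for a gene with RPB1 in WT only (CYP2S1) and for a gene whose main start had no region (CYP2E1). Capitals mark matches, on either strand, to TATAAA (the TATA box), GCGTG (the core bound by the aryl hydrocarbon receptor) and AGGTCA (a nuclear receptor half-site). TTGCNNAA (C/EBP) and the HNF1 motif were searched too and are in none of the 6 sequences.
CYP2W1: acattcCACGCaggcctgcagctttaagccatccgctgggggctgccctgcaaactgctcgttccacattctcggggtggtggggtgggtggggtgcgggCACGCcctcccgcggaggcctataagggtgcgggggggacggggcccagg
CYP27A1: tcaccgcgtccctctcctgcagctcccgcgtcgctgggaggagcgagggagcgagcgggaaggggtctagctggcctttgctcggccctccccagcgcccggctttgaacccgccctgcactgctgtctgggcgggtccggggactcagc
CYP4V2: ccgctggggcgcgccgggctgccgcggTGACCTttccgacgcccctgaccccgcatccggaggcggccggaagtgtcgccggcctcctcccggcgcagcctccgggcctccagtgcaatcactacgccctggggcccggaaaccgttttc
CYP1A1: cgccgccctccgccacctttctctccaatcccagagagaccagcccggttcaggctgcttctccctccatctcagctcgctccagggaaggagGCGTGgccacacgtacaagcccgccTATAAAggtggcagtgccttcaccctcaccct
CYP2S1: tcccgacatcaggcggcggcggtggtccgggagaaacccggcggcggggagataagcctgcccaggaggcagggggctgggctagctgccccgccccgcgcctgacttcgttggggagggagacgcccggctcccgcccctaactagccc
CYP2E1: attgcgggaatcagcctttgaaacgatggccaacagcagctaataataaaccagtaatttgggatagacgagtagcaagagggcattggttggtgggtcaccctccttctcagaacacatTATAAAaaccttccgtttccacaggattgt

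The sequences are from chr7:983031-983180 (plus strand, CYP2W1), chr2:218781997-218782146 (plus, CYP27A1), chr4:186191417-186191566 (plus, CYP4V2), chr15:74725529-74725678 (minus, CYP1A1), chr19:41193069-41193218 (plus, CYP2S1) and chr10:133527213-133527362 (plus, CYP2E1). RPB1 regions covered all 150 bases of CYP2W1, CYP27A1 and CYP4V2 in both lines, all 150 of CYP2S1 in WT and none in SHP-1 KO, and 82 of CYP1A1 in WT and 150 in SHP-1 KO. None of the bases of CYP2E1 was covered in any list. The G+C content was 69.3%, 72.0%, 74.7%, 63.3%, 74.0% and 44.7% in the order given. TATAAA, found in CYP1A1 and CYP2E1, is held by 9.63% of 15345 RefSeq windows from 250 bases before to 50 after the start of protein-coding genes, GCGTG by 44.3%, AGGTCA by 11.5%, TTGCNNAA by 8.36% and the HNF1 motif by 0.039%. A match is a match of letters only, and its absence from a window says nothing about the factor.

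Of the 19 drug and xenobiotic P450 genes, 8 were listed. Promoter RPB1 was assigned to the same 4 of the 19, CYP1A1, CYP2D6, CYP2E1 and CYP3A43, in WT and in SHP-1 KO. The shares of all protein-coding genes were 52.5% and 51.1%. CYP2C8, CYP2C18 and CYP2C19 on chromosome 10, of which CYP2C8 and CYP2C19 are drug-metabolising enzymes of liver, had no region in any list. The same held for CYP3A4, the main adult liver CYP3A enzyme, and for CYP2B6, CYP2A7, CYP2A13 and CYP2F1. No region was assigned to CYP3A7, the fetal liver enzyme, but a WT RPB1 region of 4.75 lay inside it (chr7:99729434-99730043), assigned to CYP3A7-CYP3A51P. The RPB1 region nearest to the main start of CYP3A4 was in WT 42.8 kb upstream and belonged to CYP3A43.

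CYP1A1, which oxidises polycyclic aromatic hydrocarbons, is the classical target of the aryl hydrocarbon receptor. Its main promoter RPB1 region was at chr15:74725597-74727190 with a fold enrichment of 15.1 in WT and at chr15:74725457-74727022 with 17.4 in SHP-1 KO. The summits were 851 and 1009 bases before the start of the main transcript (the Ensembl canonical transcript in GENCODE). The WT region lay 69 bp upstream of this start, and the SHP-1 KO region spanned it. No pSer2 region was assigned to CYP1A1 in either line. It was 1 of 3 members with a higher fold enrichment in SHP-1 KO.

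CYP1A2, the caffeine-metabolising neighbour of CYP1A1, had no promoter or body region but had 1 distal region per list, beyond the end of the gene. In the WT RPB1 list it lay 3501 bp past the end, with CSK the next protein-coding gene at 21.3 kb. For RPB1 the fold enrichment was 21.9 in WT (chr15:74760108-74760819) and 70.7 in SHP-1 KO (chr15:74759925-74760893), a ratio of 3.22, where 793 of 28495 WT regions shared with SHP-1 KO had a ratio at least as high. For pSer2 it was 4.85 in WT (chr15:74760438-74760705) and 21.9 in SHP-1 KO (chr15:74760225-74760793), a ratio of 4.52, reached by 95 of 53584 shared regions. The median ratio of all shared regions was 0.864 for RPB1 and 1.02 for pSer2. The region is assigned to CYP1A2 by distance only.

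CYP3A43, a minor CYP3A enzyme, was the CYP3A gene with promoter RPB1. In WT a region of fold enrichment 14.9 covered the start (chr7:99827850-99830052), and in SHP-1 KO the same stretch held 3 regions of 4.20, 3.84 and 5.77. The ratio of the strongest overlapping regions, 0.387, lies at percentile 1.67 of shared RPB1 regions of every class. The median ratio was 0.864 over these, but 0.722 over the strongest promoter regions of protein-coding genes. The 2 pSer2 regions at this start, of 5.34 and 5.07, were listed in WT and had no counterpart in SHP-1 KO. CYP3A5, the other CYP3A enzyme of adult liver and intestine, had 2 intronic pSer2 regions in WT, of 3.41 and 3.30, none in SHP-1 KO, and no RPB1 region in either line. These pSer2 values lie at percentiles 38 and 33 of the WT list.

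CYP2E1, which oxidises ethanol, was counted with a promoter RPB1 region of 14.3 in WT (chr10:133520251-133520601) and 8.88 in SHP-1 KO (chr10:133520296-133520657), but this region lies at the start of an upstream transcript and overlaps SCART1. The WT region ended 6762 bp and the SHP-1 KO region 6706 bp before the start of the main transcript, where the TATAAA shown above begins 30 bases before the start. CYP2D6, an enzyme of many drugs, had a promoter region of 5.51 in WT (chr22:42129346-42129774) and 4.22 in SHP-1 KO (chr22:42129162-42129361), at a start inside the gene, and a pSer2 region of 4.32 at this place in WT only. At its main start a WT RPB1 region of 4.70 (chr22:42130763-42131147) is assigned to LOC101929829, and SHP-1 KO had none within 1 kb. CYP2D6 and CYP2D7, a non-functional copy, are near-identical, so reads may have been placed on either. The body pSer2 counted for CYP2D7, at most 5.34 in WT and 5.98 in SHP-1 KO, lay outside the gene, in a pseudogene next to it. The body region counted for CYP2A6, the nicotine-oxidising enzyme, in SHP-1 KO only (chr19:40831719-40831956, 3.51) also lay outside that gene.

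Of the 12 P450 genes of fatty acid and eicosanoid metabolism, 9 were listed. In WT 6 of the 12 had promoter RPB1 by symbol, and in SHP-1 KO 7 did, against 52.5% and 51.1% of all protein-coding genes. By position it was 7 in both lines, with CYP2U1 then counted in WT, against 63.0% and 60.9%. CYP4V2, the fatty acid omega-hydroxylase mutated in Bietti crystalline dystrophy, was the strongest, with 38.9 in WT (chr4:186190600-186192588, percentile 92.5 of the list) and 28.0 in SHP-1 KO (chr4:186190767-186192122, percentile 92.0). By symbol and annotation its body held 1 pSer2 region in each line at different places, 4.43 in an exon 7.23 kb from the start in WT and 3.28 in an intron 2.35 kb from the start in SHP-1 KO. By position the gene also held a WT region of 3.22 at its end, assigned to KLKB1, and an SHP-1 KO region of 3.09 annotated as promoter.

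The CYP4F genes lie within 426.3 kb of chromosome 19, and all 6 were listed. Promoter RPB1 was assigned to the same 4 in both lines, against 52.5% and 51.1% of all protein-coding genes, and each was lower in SHP-1 KO. CYP4F2, which degrades leukotrienes and vitamin K, had 18.3 in WT and 13.7 in SHP-1 KO. CYP4F12 had 14.9 and 12.2, CYP4F11 had 14.6 and 11.2, and CYP4F3, the leukotriene hydroxylase of leukocytes and liver, had 9.84 and 4.88. Inside CYP4F12, 2 body pSer2 regions were listed in WT against 1 in SHP-1 KO, with strongest values of 5.17 and 3.65, and a further WT body region assigned to it, of 3.81 (chr19:15664615-15664975), lay upstream of the gene. CYP4F11 had 1 intronic pSer2 region in WT, of 3.01, at percentile 18 of that list, and none in SHP-1 KO. The body pSer2 of CYP4F2 lay outside the gene in both lines, at most 3.30 in WT and 3.05 in SHP-1 KO, upstream of its start and towards the end of CYP4F11. CYP4F3 had no body pSer2, and CYP4F8 and CYP4F22 had distal RPB1 regions in WT only. These genes are close paralogs, and how reads shared by copies were placed is not given in the sources used here.

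CYP2J2, an epoxygenase of arachidonic acid, had promoter RPB1 of 11.8 in WT (chr1:59926341-59926935) and 7.81 in SHP-1 KO (chr1:59926364-59926982) and no body pSer2. CYP2U1, a fatty acid hydroxylase, was the only member with promoter RPB1 assigned in SHP-1 KO and not in WT, 1 of 18 or 5.56% against 4.25% of all genes. Its SHP-1 KO region had 15.7 (chr4:107931323-107931994). A WT region of 22.9 covered the same start but was assigned to LOC101929595, so the difference is one of gene assignment. CYP4A11, CYP4A22 and CYP4B1, with CYP4X1 and CYP4Z1 in the same 391.9 kb cluster on chromosome 1, had no region.

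**Figure D2:**
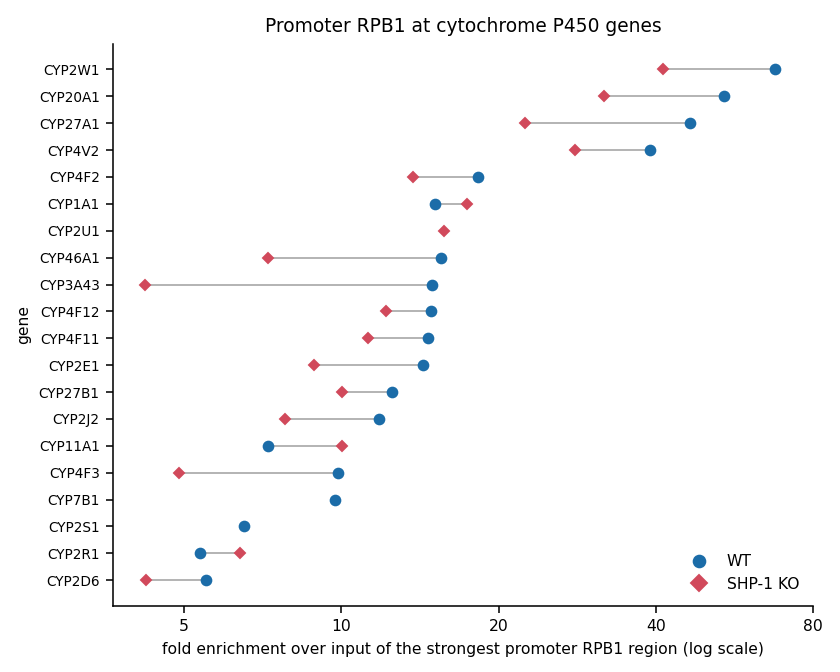
Fold enrichment over input (log scale) of the strongest promoter RPB1 region of each cytochrome P450 gene in WT (circles) and SHP-1 KO (diamonds), joined where both lists hold one. CYP2W1 is highest in both (67.5 and 41.3), CYP2S1 and CYP7B1 have a value in WT only and CYP2U1 in SHP-1 KO only.

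Of the 6 P450 genes of bile acid and oxysterol metabolism, 5 were listed. CYP27A1, the mitochondrial sterol hydroxylase that starts the alternative pathway of bile acid synthesis, carried both marks. Its promoter region had 46.6 in WT (chr2:218780907-218783196, percentile 95.3) and 22.4 in SHP-1 KO (chr2:218781643-218782944, percentile 87.8). The ratio of 0.482 lies at percentile 5.45 of shared RPB1 regions of every class. Promoter ratios ran lower than these, with a median of 0.722 over protein-coding genes, so the percentile is not one among promoters. Its body held 15 assigned pSer2 regions in WT, up to 3.95, and 5 in SHP-1 KO, up to 4.56. By position, pSer2 covered 20.6% of the gene beyond the first 1 kb in WT and 5.80% in SHP-1 KO. The regions that follow from the last kb of the gene onward are assigned to MIR9500, a microRNA gene downstream, in both lines.

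CYP46A1, the cholesterol hydroxylase of neurons, had a region before its start of 15.5 in WT (chr14:99683620-99684117) and 7.22 in SHP-1 KO (chr14:99683664-99683997). The ratio of 0.466 lies at percentile 4.54 of the same shared regions of every class, and CYP46A1 had no body pSer2. CYP7B1, the oxysterol hydroxylase that follows CYP27A1 in the alternative pathway, had promoter RPB1 of 9.72 (percentile 71.4) in WT only. The nearest RPB1 region in SHP-1 KO was 835 kb upstream of its start. CYP7A1, the rate-limiting enzyme of bile acid synthesis, had no RPB1 region but 2 pSer2 regions in its body in WT, of 3.41 and 2.51, at percentiles 38 and 5 of the list, and none in SHP-1 KO. The RPB1 region assigned to CYP8B1, the enzyme that sets the share of cholic acid, had 6.23 in WT and 4.44 in SHP-1 KO and lay in an intron of ACKR2, 4.99 and 5.06 kb upstream. CYP39A1, an oxysterol hydroxylase of liver, had no region.

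Of the 6 steroid hormone genes, CYP11A1, the side chain cleavage enzyme of cholesterol, had promoter RPB1, of 7.25 in WT (chr15:74365510-74366412) and 10.0 in SHP-1 KO (chr15:74365650-74366564). Its ratio of 1.38 was the highest of the members, and the region began 1234 and 1082 bp inside the main transcript. CYP21A2, the adrenal steroid hydroxylase, had a pSer2 region at its start of 5.08 in WT and 4.07 in SHP-1 KO and no RPB1 region, and its near-identical pseudogene copy makes this placement uncertain. CYP11B1, CYP11B2 and CYP17A1 had no region. None was assigned to CYP19A1, the aromatase gene, although an SHP-1 KO RPB1 region of 3.26 assigned to MIR7973-1 lay inside it (chr15:51313804-51314015).

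All 3 vitamin D genes were listed. CYP2R1, the liver hydroxylase of the first activation step, had weak promoter RPB1 in both lines, 5.36 in WT (chr11:14891711-14892388) and 6.38 in SHP-1 KO (chr11:14892052-14892358), and 1 intronic pSer2 region of 3.30 and 4.07. CYP27B1, the hydroxylase of the second step, had 12.5 and 10.0 in RPB1 and promoter pSer2 of 11.2 and 11.6, at percentile 98.6 of both pSer2 lists. These pSer2 regions also overlap METTL1, the next gene, so CYP27B1 cannot be told apart from it. CYP24A1, which inactivates vitamin D, had 2 distal RPB1 regions, 19.6 and 29.4 kb beyond its end, of 7.86 and 4.98 in WT and 6.31 and 6.76 in SHP-1 KO. Weak pSer2 regions of 1.84 and 2.30 lay at the same places in SHP-1 KO only. Of the 3 retinoic acid hydroxylase genes, CYP26B1 had only pSer2 regions annotated as downstream, at most 3.96 in WT and 3.46 in SHP-1 KO. By position these regions lay outside CYP26B1 in both lines, upstream of its start and not past its end.

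The 2 highest promoter values of all members belonged to genes whose substrates are poorly known. CYP2W1, an enzyme of fetal gut and of tumors, had 67.5 in WT (chr7:981652-990108) and 41.3 in SHP-1 KO (chr7:982325-984311), percentiles 98.9 and 97.1. The WT region is 8457 bp long and spans the whole gene (chr7:983181-989640). By position, RPB1 covered the whole gene beyond its first 1 kb in WT and 98.8% of it in SHP-1 KO, and pSer2 covered 94.1% and 73.0%. The body pSer2 region was nonetheless counted in SHP-1 KO only, because a 3′ UTR region of 4.50 there (chr7:989610-989966) met a region of 5.08 annotated as distal in WT (chr7:989747-989963), and the other pSer2 regions inside the gene were annotated as promoter. A long pSer2 region followed the end of the gene in both lines, of 14.8 in WT and 11.4 in SHP-1 KO.

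CYP20A1, an orphan P450, had 53.9 in WT (chr2:203238003-203240184, percentile 97.1) and 31.9 in SHP-1 KO (chr2:203238475-203240120, percentile 93.9). Body pSer2 was sparse, with 1 region of 2.64 in WT and 4 regions up to 3.00 in SHP-1 KO, and the pSer2 regions over the last part of the gene are assigned to ABI2, which follows it. CYP2S1, an epithelial enzyme inducible through the aryl hydrocarbon receptor, had promoter RPB1 of 6.51 in WT only (chr19:41192863-41193729, percentile 60.0), and the nearest RPB1 region in SHP-1 KO, 25.3 kb away, belonged to AXL. CYP27C1, CYP4X1 and CYP4Z1 had no region.

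**Figure D3:**
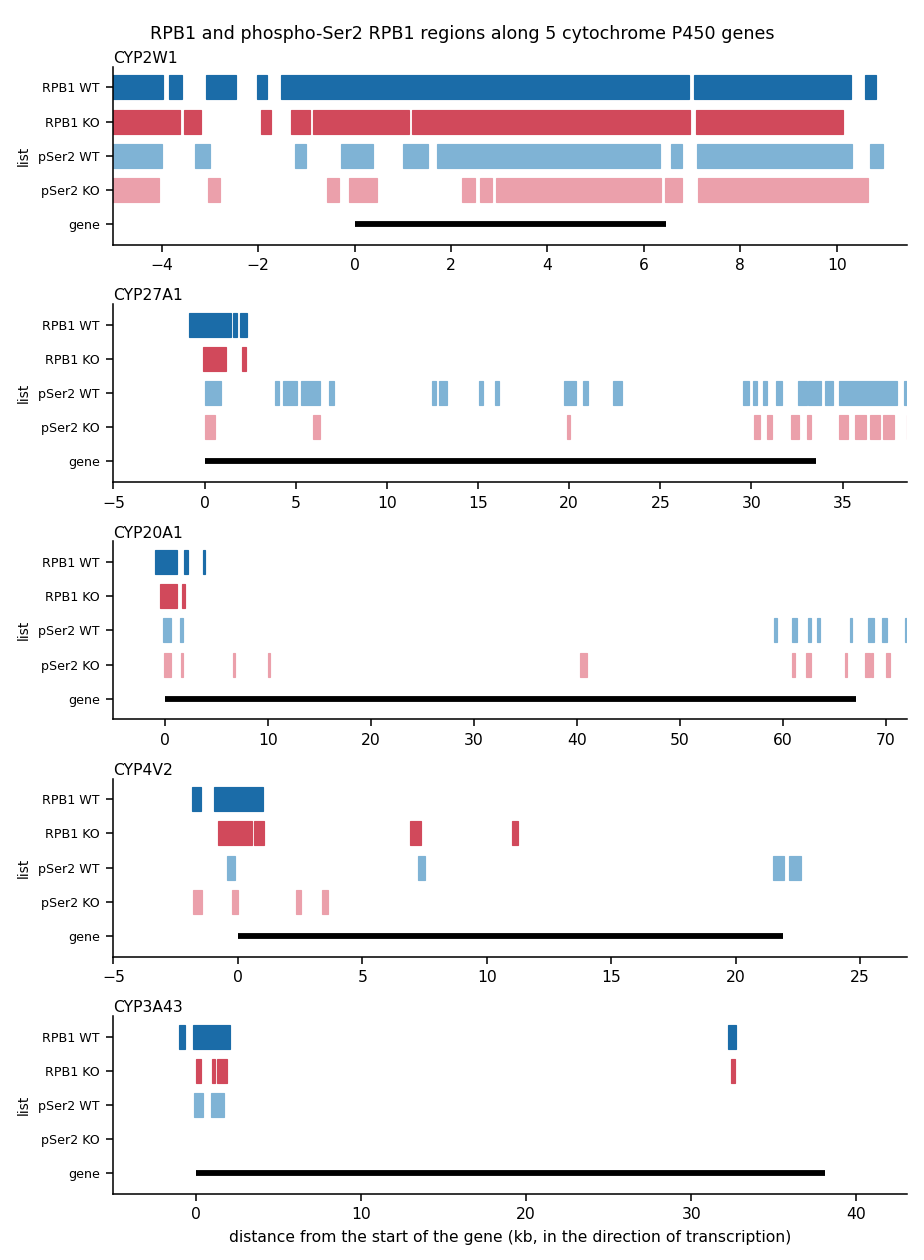
Regions along 5 cytochrome P450 genes, with distance from the gene start in kb on the horizontal axis, 1 track per list and the gene as a black line. RPB1 spans CYP2W1 and pSer2 covers most of it, with gaps near the start, CYP27A1 holds more pSer2 regions in WT than in SHP-1 KO, and CYP3A43 has pSer2 at its start in WT only.

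Between SHP-1 WT and SHP-1 KO, most P450 promoters kept their call. Promoter RPB1 was listed in both for 17 members, in WT only for CYP2S1 and CYP7B1, 2 of 19 or 10.5% against 6.83% of all genes, and in SHP-1 KO only for CYP2U1. Body pSer2 was listed in WT only for CYP3A5, CYP4F11 and CYP7A1, 3 of 10 or 30.0% against 19.8% of all genes, and in SHP-1 KO only for CYP2A6 and CYP2W1, 2 of 9 or 22.2% against 7.90%. The regions behind the WT-only body calls were weak, with fold enrichments from 2.51 to 3.41, and the SHP-1 KO-only calls rest on the assignments described above. Promoter pSer2 was listed for 9 members in WT, 16.4% against 38.2% of all genes, and for 8 in SHP-1 KO, 14.5% against 34.2%. The SHP-1 KO pSer2 list is shorter, with 81012 regions against 102674 in WT, and the RPB1 list has 41605 against 46045, and the part of list length in these calls was not tested.

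Counting regions by position, whatever symbol they were given, changed which genes differed. Promoter RPB1 within 1 kb of any transcript start was then found at 21 members in WT, 38.2% against 63.0% of all genes, and at 18 in SHP-1 KO, 32.7% against 60.9%. The WT-only genes were CYP1B1, CYP2S1 and CYP7B1, 3 of 21 or 14.3% against 4.41%, and none of 18 was found in SHP-1 KO only, against 1.09%. At CYP1B1, which activates procarcinogens and estrogens, the WT region of 4.91 (chr2:38076908-38077174) is assigned to the antisense gene CYP1B1-AS1, and the lists do not carry strand. Body pSer2 beyond 1 kb of the start was found at 12 members in WT, 21.8% against 50.1%, and at 7 in SHP-1 KO, 12.7% against 44.7%. It was in WT only at CYP2D6, CYP3A43, CYP3A5, CYP4F11 and CYP7A1, 5 of 12 or 41.7% against 14.2%. In SHP-1 KO only it was found at none of 7, against 3.83%. The regions that put CYP2D6 and CYP3A43 in this count are annotated as promoter. They lie within 1 kb of a start of the gene, so they are not clear body regions. An RPB1 region within 1 kb of the main transcript start was found at 19 members in WT, 34.5% against 60.1%, and at 15 in SHP-1 KO, 27.3% against 58.1%.

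The promoter fold enrichment of members moved between the lines as that of other genes did. Over the 17 members with a promoter region in both, the median SHP-1 KO to WT ratio was 0.720, and 14 of 17 lay below 1. The ratios ran from 0.282 at CYP3A43 to 1.38 at CYP11A1. At CYP3A43 the strongest SHP-1 KO region under the WT promoter region, of 5.77, is annotated as intron and left out. With that region the ratio was 0.387. Over all 9596 protein-coding genes with both, the median was 0.722 and 85.8% lay below 1. The fold enrichments of separate libraries share no normalization, so the shift of all genes cannot be read as a loss. A ratio lower by at least 1.5-fold was found at 8 of 17 members, 47.1% against 39.0% of all genes, at CYP2W1, CYP20A1, CYP27A1, CYP46A1, CYP3A43, CYP2E1, CYP2J2 and CYP4F3. No member was higher by 1.5-fold, against 1.89% of all genes.

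**Figure D4:**
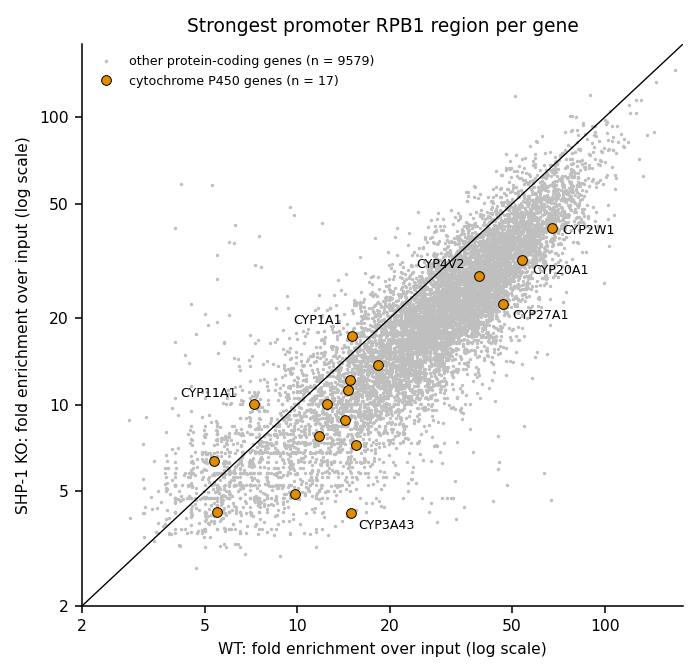
Fold enrichment over input of the strongest promoter RPB1 region in WT (horizontal) and SHP-1 KO (vertical), both on log scales, for 17 cytochrome P450 genes (orange) and all other protein-coding genes with a region in both lists (grey), with the line of equal values. The P450 genes lie within the cloud, with 14 of 17 below the line and CYP3A43 farthest below it. For CYP3A43 a stronger SHP-1 KO region annotated as intron is not counted.

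At the level of regions, 27 of the members' 47 RPB1 regions in WT met one in SHP-1 KO, 57.4% against 61.9% of the whole list, and 34 of their 39 regions in SHP-1 KO met one in WT, 87.2% against 74.9%. For pSer2 these were 29 of 67, 43.3% against 52.2%, and 35 of 48, 72.9% against 69.9%.

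A chosen list of 24 genes that serve or regulate the P450 enzymes was occupied more widely than the P450 genes. Of these 24, 22 had promoter RPB1 in WT and in SHP-1 KO, against 52.5% and 51.1% of all protein-coding genes. Body pSer2 was listed for 18 and 17 of them, against 40.7% and 35.4% of all genes. The list was picked by hand, while the P450 genes are a family taken by name, so the groups are not alike in how they were chosen. POR, the shared electron donor, had 12.3 in WT and 8.66 in SHP-1 KO, with pSer2 over 27.0% and 25.0% of its body. ALAS1, the rate-limiting enzyme of haem synthesis, had 81.3 and 36.9. AHR, the aryl hydrocarbon receptor, had 46.2 and 25.2, and HNF4A, a master regulator of hepatocyte genes, had 25.6 and 19.8, with pSer2 over 69.4% and 51.0% of its body. NR1I3, the constitutive androstane receptor, had 8.01 and 11.6. The 2 without promoter RPB1 in either line were NR1I2, the pregnane X receptor that induces CYP3A4, and VDR, the vitamin D receptor that induces CYP24A1. NR1I2 was still assigned body pSer2 in both lines, by position in WT only, and VDR had none. Of 8 liver markers, 7 had promoter RPB1 by assigned symbol in both lines, but only 3 in WT and 4 in SHP-1 KO had body pSer2, so the count by symbol misses transcribed liver genes. By position all 8 had both marks in both lines, with ALB at 24.4 and 24.1, while PTPRC and CD3E of blood cells, COL1A1 of fibroblasts and VWF of endothelium had neither. PDGFRB and PECAM1 had both by position, with promoter values of 17.3 and 6.35 in WT and 14.5 and 4.32 in SHP-1 KO.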

How the data were processed

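The measurements were ChIP-seq of RPB1 and pSer2 RPB1 in the WT and the SHP-1 KO line of HepG2, each antibody used on 1 library per line. Reads were trimmed with Trimmomatic, aligned to GRCh38/hg38 with BWA in the MUGQIC pipeline, and narrow peaks were called per library by MACS2 with the input DNA of that line as control. The authors deposited 1 list per library, in which each region has a fold enrichment over input (a ratio, at the summit), a −log10 q-value, an annotation and a nearest gene. Tool versions, library depth and the annotation release are not given in the sources used here. The table of the authors' own comparison of RPB1 between the lines (window counts in each direction, with p-values) was not used.

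Members were taken by assigned symbol and matched to GENCODE release 44, which names 55 of them. Promoter regions were those annotated as promoter, all of which lie within 1 kb of the assigned start. Exons, introns and UTRs were counted as gene body. For a gene with several regions the highest fold enrichment was used, without a pseudocount. Percentiles are within 1 list. The background was all 20007 protein-coding genes. Positions within 1 kb of a start, the body beyond 1 kb, and overlaps of at least 1 bp were computed from coordinates, and these functions were tested on simulated regions. Of the members' 76 promoter regions, 75 lie within 1 kb of a GENCODE start of the same gene. A member counted in the totals is not reported here by name or drawn. Promoter sequences are from RefSeq (GRCh38.p14). Python 3.11.15, pandas 2.3.3, NumPy 2.4.6 and matplotlib 3.10.9 were used.

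With 1 library per antibody and line, no p-value was computed. Values are given for members whose presence differed between the lines, for the 10 with the highest promoter RPB1 in either list and for those with only one of the 2 marks, and others are named by role. The members, roles, partner genes and markers were chosen with earlier results of these data known. The alternatives were a −log10 q-value of at least 5, other windows and gene assignments, downstream regions counted as body, 2 more genes, a reciprocal overlap of 50% and another background. Counts within 1 kb by position and of regions that span a start were added after seeing the data.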

Additional observations from a re-analysis of the deposited data

How the results depend on the processing

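No paired analysis was possible because each antibody and cell line has 1 library and no result comes from a test. Of 70 recomputed values, 55 stayed within 1.5 times the count or within the counting interval of the share. Among regions whose −log10 q-value was 5 or higher, body pSer2 was left at 5 members in WT and 3 in SHP-1 KO, both marks at 4 and 2, and body pSer2 in SHP-1 KO only at 1, while promoter RPB1 was left at 19 and 17. Promoter RPB1 in SHP-1 KO only fell to 0 members by position, within 1 kb or 3 kb of the start. Body pSer2 in SHP-1 KO only fell to 1 member with downstream regions counted as body or with regions inside the assigned gene, and to 0 by position. Body pSer2 in WT only rose to 5 members by position within 1 kb, with CYP2D6 and CYP3A43 counted through regions annotated as promoter. With a reciprocal overlap of 50%, 25.4% of the members' WT pSer2 regions were shared with SHP-1 KO, against 26.0% of all. Over every symbol with a region in any list, promoter RPB1 was assigned to 74.4% of symbols in WT and 72.0% in SHP-1 KO. The limit of 1 kb for promoters removed none. The unknown depth, the single libraries and the clones limit every difference between the lines.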
